A study of Homo sapiens with 21 samples.

Results

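The nuclear-encoded subunits of the mitochondrial respiratory chain were followed by RNA-seq in 2 human cancer cell lines under low oxygen and with altered METTL4. Members were chosen by gene symbol: the NDUFA, NDUFB, NDUFC, NDUFS and NDUFV genes of complex I, SDHA to SDHD of complex II, the UQCR genes and CYC1 of complex III, the COX4 to COX8 genes of complex IV, and the ATP5 genes of complex V. Assembly factors were left out, and NDUFA4 and NDUFA4L2 were placed with complex IV, to which NDUFA4 belongs. The rule gave 91 of 20175 protein-coding genes of the annotation: 38 in complex I, 4 in complex II, 10 in complex III, 19 in complex IV and 20 in complex V. Of these, 83 had values in each of the 4 tables, and 8 were not analysed here (COX4I2, COX6A2, COX6B2, COX7A1, COX7B2, COX8C and the readthrough loci ATP5MF-PTCD1 and NDUFC2-KCTD14).

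Complexes I to IV pass electrons from NADH and succinate to oxygen. Of these, complexes I, III and IV pump protons across the inner mitochondrial membrane. Complex V, the ATP synthase, uses the proton gradient to make ATP. Most of their subunits are encoded in the nucleus, and their genes are commonly bound by the factors NRF1 and GABPA (an ETS factor). In low oxygen, hypoxia-inducible factor (HIF) lowers the flow of fuel into the chain through PDK1, which inhibits pyruvate dehydrogenase, and induces alternative subunits such as NDUFA4L2 and COX4I2.

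FADU, a head and neck squamous carcinoma line, and BFTC909, a line from a transitional cancer of the renal pelvis, were each measured with 2 libraries per group. The 3 groups of each line were Scr-si in normoxia (18% O2), Scr-si in hypoxia (1% O2, 18 h) and METTL4-si in hypoxia; METTL4 is a methyltransferase that the study follows as a writer of N6-methyladenine in DNA. The hypoxia and METTL4-si comparisons of a line share its Scr-si hypoxia libraries, so their values are given side by side. The labels write "si", while the study describes lentiviral short hairpin RNAs in antibiotic-selected stable clones. FADU stable clones carrying Flag-tagged METTL4 (METTL4-OE) or the empty vector (cont-OE) were measured in normoxia, again with 2 libraries per group. FADU cells in hypoxia with the METTL4 catalytic DPPW motif changed to APAW by prime editing were measured as single-cell clones 1 and 2, with 1 CRISPR-cont library and 1 library per clone. Nothing in the sources says whether the 2 libraries of a group came from separate cultures, so p-values measure only the spread between these libraries.

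All values are TMM-normalised CPM, read counts scaled to library size by the trimmed mean of M-values. A gene was called when it changed at least 1.3-fold with an adjusted p below 0.05 in a limma fit across all tested genes (log2 of the value plus 1, Benjamini-Hochberg adjustment), and "rose" and "fell" are kept for called genes. Each fold change is on this log2(value + 1) scale. In bulk RNA, fewer cells of a type and less RNA per cell cannot be told apart.

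The oxygen and METTL4 labels were checked first. CA9 and PDK1, textbook HIF targets, rose in hypoxia in FADU (from 2.44 ± 0.16 to 34.4 ± 4.8 and from 39.9 ± 0.31 to 267 ± 5.8; SD, n = 2) and in BFTC909 (from 0.77 ± 0.58 to 55.1 ± 1.6 and from 140 ± 2.4 to 357 ± 13; SD, n = 2). The METTL4-si libraries, also labelled hypoxia, did not have this pattern in full. In FADU they had CA9 at 2.05 ± 0.25 and PDK1 at 54.9 ± 4.6, and BNIP3, another HIF target, at 12.5 ± 1.1, against 14.9 ± 0.70 in normoxia and 182 ± 9.0 in Scr-si hypoxia (SD, n = 2). In BFTC909 they had CA9 at 5.69 ± 0.22, PDK1 at 165 ± 31 and BNIP3 at 102 ± 24, against 97.6 ± 0.58 and 350 ± 5.2 for BNIP3 in normoxia and Scr-si hypoxia (SD, n = 2). These genes thus went against the hypoxia label of the METTL4-si libraries in FADU, and for PDK1 and BNIP3 largely in BFTC909, and from them a lower response to hypoxia and a difference in oxygen cannot be told apart. BNIP3 was named after its values were seen. In FADU, METTL4 RNA was 25.7 ± 2.0 where the label reads METTL4-si and 26.0 ± 0.91 in Scr-si hypoxia (SD, n = 2), so the label was not borne out in RNA, and these are called the libraries labelled METTL4-si. In BFTC909 it was 13.3 ± 1.5 against 17.3 ± 2.4, which did not pass the test (limma adjusted p = 0.072). METTL4 rose from 34.1 ± 1.9 to 148 ± 13 in METTL4-OE (limma adjusted p = 1.6e-09). The METTL4 level does not check the edited clones, in which codons and not the transcript level were targeted.

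Marker genes set 3 libraries apart. All 8 squamous markers were present in FADU and summed to 3321 to 3765 in the Scr-si libraries and to 2090 and 2282 with the METTL4-si label. TFF1, a secreted protein of luminal breast and stomach, was at 135 in METTL4-si replicate 1 and 26.2 in Scr-si normoxia replicate 1 and at 0 in the other 4 FADU libraries, and the 4 luminal breast markers measured summed to 279 and 56.6 in those libraries against 3.16 to 7.55 elsewhere. In BFTC909, the luminal transcription factor GATA3 was at 128 and KRT8 at 715 in METTL4-si replicate 2, against 0.57 to 0.96 and 2.60 to 7.55 in the other libraries, and 4 of 8 markers of simple and urothelial epithelium were measured. In BFTC909 5 of 6 fibroblast markers were measured, and their sum was 1020 and 1114 in normoxia, 4447 and 4652 in hypoxia and 2481 and 2680 with the METTL4-si label. Results are therefore also given without these 3 libraries, and their part in the results was not tested.

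Promoter windows of 4 members show the motifs that were searched. UQCRH and NDUFS6 had the most negative change in FADU with the METTL4-si label and in FADU hypoxia, ATP5PB was among the 4 most negative with that label, and COX6A1 was the member furthest below the control in the edited clones. Each run is the 250 bases before the RefSeq gene start (GRCh38.p14, plus strand), and capitals mark a match on either strand to ACGTG (the core of the hypoxia response element), GCATGCGC (an NRF1 core) or CTTCCGG (an ETS core).
UQCRH, chr1:46303448-46303697: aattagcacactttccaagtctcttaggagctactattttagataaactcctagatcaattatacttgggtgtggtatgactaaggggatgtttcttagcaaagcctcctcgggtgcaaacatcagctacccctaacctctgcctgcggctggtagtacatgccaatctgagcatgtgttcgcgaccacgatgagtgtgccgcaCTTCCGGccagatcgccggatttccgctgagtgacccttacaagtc
ATP5PB, chr1:111449214-111449463: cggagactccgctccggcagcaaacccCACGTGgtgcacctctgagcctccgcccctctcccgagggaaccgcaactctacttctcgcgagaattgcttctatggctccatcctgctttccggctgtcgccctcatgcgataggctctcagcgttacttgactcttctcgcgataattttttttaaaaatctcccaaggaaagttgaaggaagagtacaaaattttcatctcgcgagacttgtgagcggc
NDUFS6, chr5:1801157-1801406: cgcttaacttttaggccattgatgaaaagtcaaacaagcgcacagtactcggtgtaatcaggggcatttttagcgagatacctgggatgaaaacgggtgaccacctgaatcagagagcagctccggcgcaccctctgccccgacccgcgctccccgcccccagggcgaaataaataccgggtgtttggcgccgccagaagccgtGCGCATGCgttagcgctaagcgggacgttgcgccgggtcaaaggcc
COX6A1, chr12:120437863-120438112: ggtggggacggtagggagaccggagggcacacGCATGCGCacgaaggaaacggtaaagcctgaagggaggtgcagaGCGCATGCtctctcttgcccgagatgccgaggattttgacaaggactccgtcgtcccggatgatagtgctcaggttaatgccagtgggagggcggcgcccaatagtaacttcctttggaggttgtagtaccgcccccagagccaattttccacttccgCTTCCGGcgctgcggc
In UQCRH the ETS core began 46 bases before the start, and in NDUFS6 the NRF1 core stood at the same distance of 46 bases. The ACGTG match of ATP5PB lies inside a palindrome, CACGTG, which is also an E-box and is matched on both strands. COX6A1 held 2 NRF1 cores, 218 and 174 bases before the start, and an ETS core 16 bases before it.

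The motif shares were counted over the 71 members matched in the RefSeq table, with a gene counted once if any of its listed starts held the motif. The NRF1 core was found in 13 of 71 members (18.3%), against 3.22% of all 27305 genes of the table. The ETS core was found in 18 of 71 (25.4%), against 10.2%, and ACGTG in 17 of 71 (23.9%), against 21.7%. Among the 20 matched members that fell in FADU with the METTL4-si label, 6 held the NRF1 core, 7 the ETS core and 1 the ACGTG core. The ACGTG core was in 2 of 6 that fell in FADU hypoxia, 4 of 16 in BFTC909 hypoxia and 0 of 5 in BFTC909 with the METTL4-si label. With that label against normoxia it was in 7 of 34 in FADU and 7 of 31 in BFTC909. In these other sets the NRF1 core was in 16.7% to 31.2% and the ETS core in 29.4% to 50%. These are counts of letters in a window and not of binding sites.

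The summed value of the subunits was lower in hypoxia than in normoxia, and lower again with the METTL4-si label, in the plot of summed values. These sums were not tested. In FADU the 83 genes summed to 5822 and 6190 in normoxia, 5252 and 5393 in hypoxia, and 4556 and 4206 with the METTL4-si label. In BFTC909 they summed to 6346 and 6282, then 5117 and 5315, then 4569 and 4589. In both lines the 3 pairs of libraries did not overlap. Between normoxia and METTL4-si in hypoxia the sum of complex V differed most of the 5 complexes in both lines. It was 1808 and 1949, 1707 and 1754, and 1353 and 1174 in FADU, and 2313 and 2308, 1797 and 1889, and 1526 and 1514 in BFTC909. Complex I in FADU went from 2019 and 2111 to 1706 and 1733 in hypoxia and to 1593 and 1562 with the METTL4-si label.

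**Figure D1:**
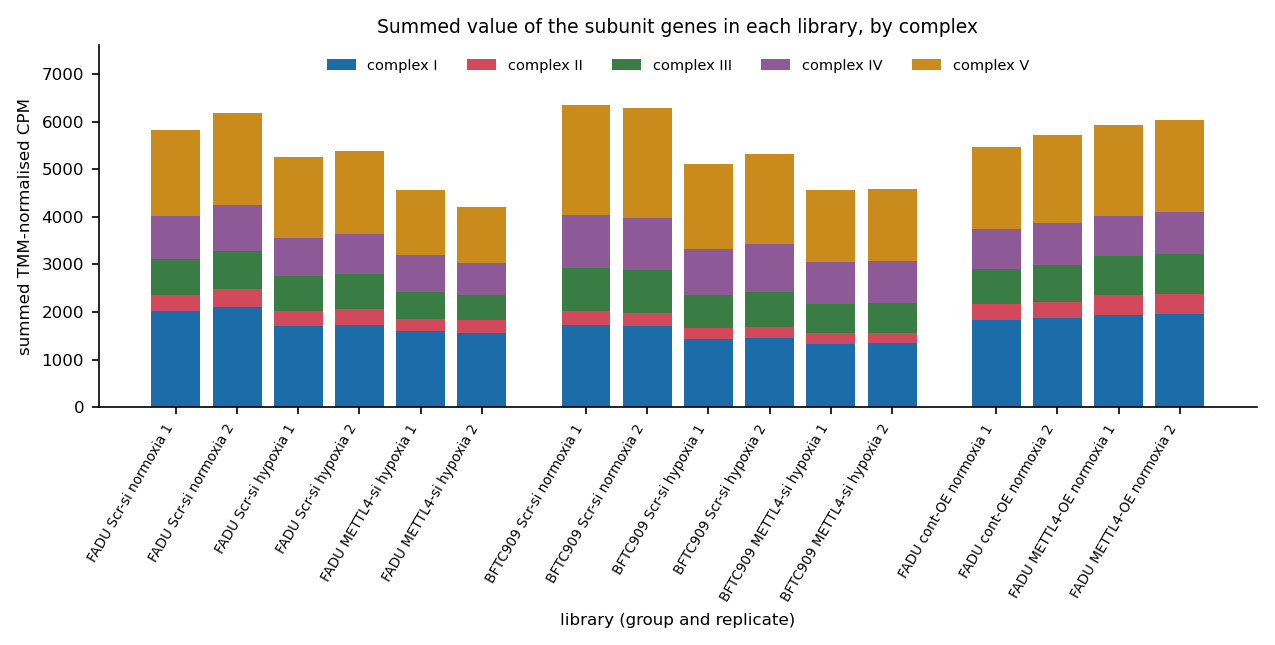
Stacked bars give the summed TMM-normalised CPM of the subunit genes of each complex (y axis) in each library of the knockdown and overexpression tables (x axis, group and replicate). In both lines hypoxia libraries stand below normoxia libraries and METTL4-si libraries below both, while METTL4-OE libraries (5921 and 6026) stand above cont-OE libraries (5471 and 5712).

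Hypoxia in FADU lowered few subunits past the test. Of 83 members tested, 7 fell (8.43%, against 9.65% of all 16324 genes tested) and 0 rose (9.73% of all genes). The share that fell is near the background, and in complex I it was 5 of 37 (13.5%). With the criterion that uses an unadjusted p, 10 fell (12% against 12.5% of all genes) and 0 rose. The median member had a log2 fold change of -0.20, against -0.03 over all genes, and 56 of 83 members had both hypoxia libraries below both normoxia libraries (67.5%, against 39.5% of all genes), while 8 had both above (9.64%, against 33.5%). DESeq2 and edgeR on recovered reads also called 0 up. The 7 simple and urothelial epithelium markers measured in FADU summed to 3949 and 3460 in normoxia and 2113 and 2128 in hypoxia, and their part in the result was not tested.

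NDUFS6, an accessory subunit of the NADH-oxidising arm of complex I, had 79.4 and 71.3 in normoxia and 46.3 and 46.3 in hypoxia (chr5:1801521-1816162 in hg19). The hypoxia libraries were the lower pair and the groups did not overlap, with a log2 fold change of -0.69 ± 0.10 (SE, limma adjusted p = 0.0044). NDUFB9, an accessory subunit of the membrane arm, had 212 and 228 in normoxia and 145 and 149 in hypoxia, a change of -0.57 ± 0.06 (limma adjusted p = 0.0021). NDUFS3, a core subunit, fell by 0.52 on the log2 scale from 48.8 and 59.5 to 37.5 and 36.8. The other 2 complex I subunits that fell were NDUFA1 and NDUFA3 (-0.40 and -0.43). COX6B1, a complex IV subunit at the contact between monomers of the dimer, went from 67.6 and 70.3 to 46.0 and 51.8 (-0.49), and ATP5MC1, a gene for the proton-carrying c subunit of complex V, from 45.6 and 42.8 to 33.3 and 33.8 (-0.39). No member of complex II or III was called, and the core genes SDHA (-0.19), UQCRFS1 (-0.19), CYC1 (-0.45) and ATP5F1B (-0.20) did not pass.

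The FADU hypoxia calls depended on the libraries, for members and for all genes. With any one of the 4 libraries left out, the median member lay between -0.24 and -0.15, against -0.03 to -0.02 over all genes. Without the libraries with luminal markers it was -0.24, against -0.03 over all genes. NDUFB9 kept its call with each library left out, whereas NDUFS6 lost it without either Scr-si hypoxia library and NDUFS3 without either of those or normoxia replicate 2. COX6B1 lost its call when any of the 4 was left out.

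Hypoxia in BFTC909 lowered 19 of 81 members and raised NDUFA4L2 (19 is 23.5%, against 18.3% of all 14869 genes tested; 1 is 1.23%, against 17.9%). ATP5MGL and NDUFA7, at 0.47 to 1.29 in all 6 libraries, did not pass the filter on low values. The falls were spread over complex V (8 of 18), complex III (4 of 10), complex II (2 of 4), complex I (4 of 36) and complex IV (1 of 13). The median member changed by -0.25, against -0.02 over all genes, and 61 of 81 members had both hypoxia libraries below both normoxia libraries (75.3%, against 43.2%), while 5 had both above (6.17%, against 39%). The fibroblast marker sum given above also differed between these groups, as did the simple and urothelial one (112.5 and 107.6 in normoxia, 31.7 and 31.2 in hypoxia). The sum of the 3 squamous markers measured was 33.5 and 35.7, then 111 and 119. It came almost wholly from PKP1 (32.3 and 35.0, then 111 and 119), and SFN and TP63 were below 1 in these libraries. The part of these markers in the result was not tested.

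In complex III, UQCR11, a small accessory subunit, had 18.4 and 17.8 in normoxia and 9.16 and 9.84 in hypoxia. This was the most negative log2 fold change of the line in hypoxia among members, -0.86 ± 0.10 (SE, limma adjusted p = 0.00066). UQCR10 went from 43.9 and 42.0 to 25.6 and 27.2 (-0.68), and UQCRFS1, the Rieske iron-sulfur protein, from 75.8 and 73.5 to 48.6 and 51.0 (-0.57). CYC1, cytochrome c1, went from 124 and 123 to 82.3 and 93.5 (-0.49). In all 4 genes the hypoxia libraries were the lower pair.

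In complex V, ATP5MC1 had 69.5 and 65.0 in normoxia and 38.3 and 38.7 in hypoxia, and fell by 0.79 on the log2 scale (SE 0.11, limma adjusted p = 0.0011). The other 7 ATP synthase genes that fell lay between -0.40 (ATP5F1C) and -0.50 (ATP5MC3), while the catalytic genes ATP5F1A (-0.34) and ATP5F1B (-0.25) did not reach 1.3-fold. In complex I, NDUFAB1, the mitochondrial acyl carrier protein, went from 43.1 and 42.3 to 26.0 and 26.4 (-0.68), followed by NDUFS3 (-0.57), NDUFB9 (-0.52) and NDUFA5 (-0.42). In complex II, SDHB and SDHD, which hold the iron-sulfur clusters and part of the membrane anchor, fell by 0.44 and 0.51.

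NDUFA4L2, the hypoxic counterpart of NDUFA4, was low and rose in BFTC909: 0.58 and 0.92 in normoxia and 2.70 and 3.11 in hypoxia, a change of 1.16 ± 0.21 (SE, limma adjusted p = 0.0036). The 2 groups did not overlap. The gene passed the filter on low values only through the libraries labelled hypoxia, where it is high, so its call is a description and not independent support. The size depends on the constant added, with 1.84 at a pseudocount of 0.1, 0.46 at 5, and 1.94 by edgeR on recovered reads. The METTL4-si libraries had 1.97 and 3.32, with no call against Scr-si hypoxia (-0.12). In FADU it was 0.75 and 0.80 in normoxia, 0.72 and 1.00 in hypoxia and 0.88 and 1.07 with the METTL4-si label, and was not called in hypoxia (0.06). Divided by exon length in the annotation (3.461 kb for NDUFA4 and 2.803 kb for NDUFA4L2), NDUFA4 stood at 24.0 and NDUFA4L2 at 1.04 per kb in BFTC909 hypoxia, and at 19.0 and 0.31 in FADU hypoxia. NDUFA4 itself was not called in hypoxia in either line (-0.15 in BFTC909 and -0.28 in FADU).

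Of the other isoform genes of complex IV, COX6B1 fell in hypoxia in both lines (-0.41 in BFTC909 and -0.49 in FADU), and the rest were not called. COX4I1, the subunit replaced by COX4I2 in the hypoxic switch, lay between 207 and 218 in the 4 BFTC909 Scr-si libraries and between 209 and 217 in the 4 FADU ones, and its log2 fold change was -0.04 and -0.01. COX6A1 (0.10 and -0.36), COX7A2 (-0.34 and -0.14), COX7A2L (0.21 and 0.08), COX7B (-0.33 and -0.36) and COX8A (-0.19 and -0.44), given for BFTC909 and then FADU, did not pass, although COX8A in FADU was past 1.3-fold. ATP5IF1, the inhibitor protein of the ATP synthase, was not called either (0.12 and -0.03).

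Scaling mattered in BFTC909. With libraries centred on their median the members that fell in hypoxia numbered 12 (14.8%, against 14.2% of all genes), near the background, and the share of higher genes among all calls moved from 49.6% to 60.4%. Leaving out normoxia replicate 1 or hypoxia replicate 1 each left 11 members called down (13.6%, against 12% and 13.6% of all genes). SDHD, COX6B1 and SDHB lost their calls under the centring, while UQCR11, ATP5MC1, NDUFAB1, UQCR10 and UQCRFS1 kept theirs there and with each library left out. CYC1 lost its call without normoxia replicate 1 or hypoxia replicate 1.

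**Figure D2:**
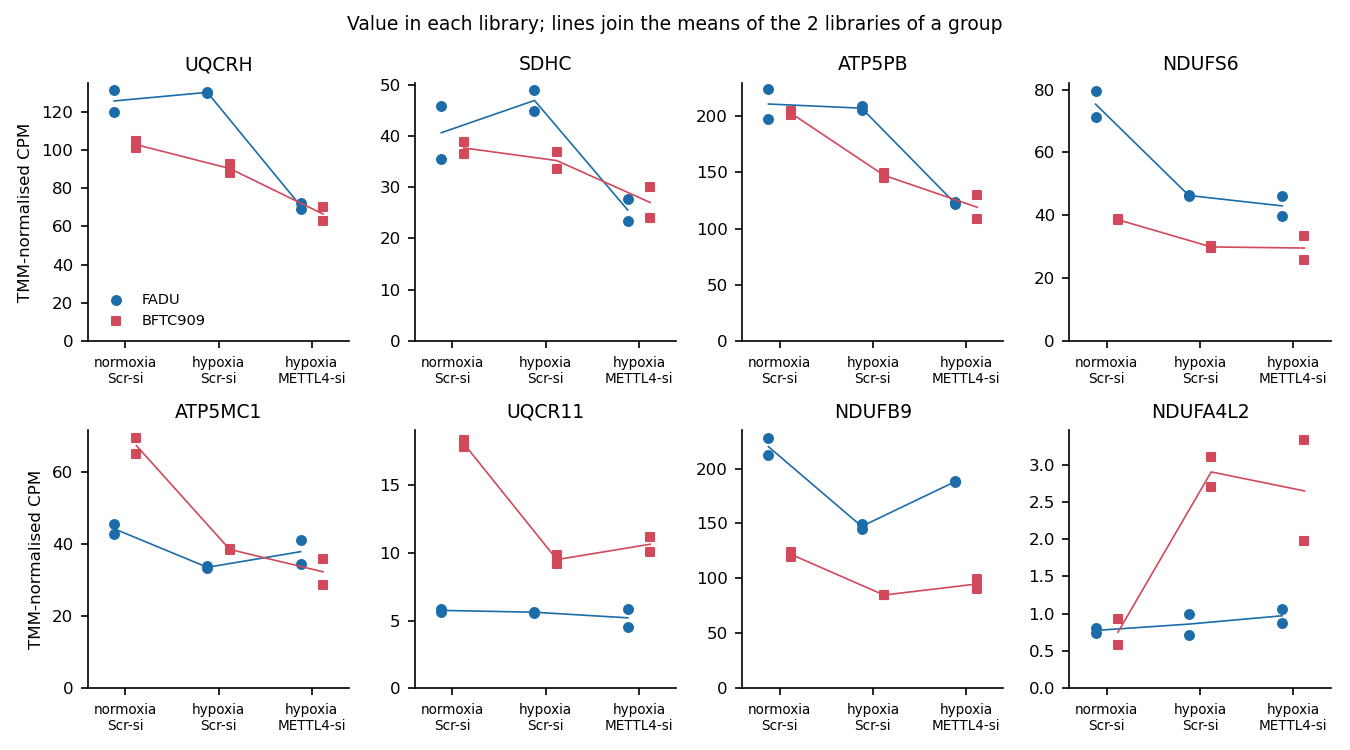
Each of 8 panels gives the TMM-normalised CPM (y axis, from 0) of 1 gene in the 6 FADU (circles) and 6 BFTC909 (squares) libraries of the knockdown tables by group (x axis), with lines through group means. NDUFA4L2 is higher in BFTC909 hypoxia, UQCRH and ATP5PB are lower with the METTL4-si label in FADU, and UQCR11 is lower in BFTC909 hypoxia.

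With the METTL4-si label in FADU, 25 of 83 members fell relative to Scr-si in hypoxia (30.1%, against 15.3% of all genes) and 1 member, NDUFC2, rose (1.2%, against 12.5%). The ATP synthase had the largest share, with 10 of 19 members fallen, followed by complex II (2 of 4), complex III (4 of 10), complex I (8 of 37) and complex IV (1 of 13, COX7C). The median log2 fold change was -0.42 in complex V and -0.07 in complex IV, and -0.22 over all 83 members against 0.02 over all genes. The 2 groups did not overlap, with the METTL4-si libraries lower, in 46 of 83 members (55.4%, against 34.4% of all genes), and with them higher in 10 (12%, against 33.9%). The squamous marker sum given above was also lower in these libraries, and CA9, PDK1 and BNIP3 were below their Scr-si hypoxia values, and the part of either in the result was not tested.

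UQCRH, the hinge protein that brings cytochrome c to complex III, had 129.9 and 130.4 in Scr-si hypoxia and 69.4 and 72.1 with the METTL4-si label. The change was -0.87 ± 0.07 (SE, limma adjusted p = 0.00046), a 1.83-fold fall. UQCRHL, a near copy of UQCRH, was at 3.24 and 4.56 against 2.55 and 3.43 and was not called, and reads of the copies can be shared. UQCRB, which binds ubiquinone in complex III, went from 123 and 122 to 72.3 and 70.8 (-0.76). The Rieske protein gene UQCRFS1 went from 61.7 and 60.6 to 44.1 and 36.3 (-0.60), and UQCRQ also fell (-0.49).

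In complex II, SDHC, which anchors the enzyme in the membrane, had 44.8 and 49.0 in Scr-si hypoxia and 27.8 and 23.4 with the METTL4-si label, a change of -0.85 ± 0.14 (limma adjusted p = 0.0052). SDHD, the other anchor, fell by 0.58 on the log2 scale, from 53.5 and 57.8 to 34.6 and 39.2. The catalytic subunits SDHA (-0.07) and SDHB (-0.22) were not called.

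In the ATP synthase, the stator gene ATP5PB had 205 and 209 against 122 and 123, a change of -0.75 ± 0.07 (limma adjusted p = 0.00089). ATP5PF, another stator subunit, went from 29.6 and 28.8 to 20.3 and 15.0 (-0.71), and ATP5MK, a small subunit that helps to hold dimers, from 60.9 and 64.2 to 42.5 and 38.9 (-0.61). The catalytic-head genes ATP5F1A (-0.51), ATP5F1B (-0.47) and ATP5F1C (-0.42) fell with them, as did the stalk and membrane genes ATP5PD (-0.51), ATP5MG (-0.50), ATP5PO (-0.43) and ATP5MC3 (-0.43). ATP5MC1 (0.17) was not called.

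In complex I the lowest was NDUFA5 at -0.62, from 41.1 and 40.04 to 27.0 and 24.9, and the other 7 that fell lay between -0.38 and -0.52. The core genes NDUFS1 (-0.10) and NDUFV1 (-0.29) were not called, nor was NDUFS6 (46.2 and 39.8 with the METTL4-si label, -0.11). NDUFC2, the member that rose, went from 9.30 and 9.81 to 13.3 and 12.9 (0.42 ± 0.10), beside 12.8 and 12.3 in normoxia.

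Here again a single library decided part of the count, and the share over all genes moved too. The median member was -0.25 without Scr-si hypoxia replicate 1 and -0.19 without Scr-si hypoxia replicate 2, against 0.01 over all genes in each. Without Scr-si hypoxia replicate 2 the share of members that fell was near that of all genes. The median was -0.34 without METTL4-si replicate 1 and -0.12 without METTL4-si replicate 2, against -0.01 and 0.02 over all genes. METTL4-si replicate 1, the library with the highest luminal markers, was above replicate 2 in 60 of 83 members, with a median difference of 0.14 on the log2 scale. Without both doubted FADU libraries the median member was -0.34, against -0.01 over all genes. UQCRH, UQCRB and ATP5PB kept their calls with each library left out. SDHC, SDHD and ATP5F1A lost theirs without Scr-si hypoxia replicate 2, UQCRFS1 and ATP5F1B without either Scr-si hypoxia library, and NDUFC2 without either of those, with a pseudocount of 5, with median-centred libraries or with the compared groups alone.

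In BFTC909, 6 of 81 members fell with the METTL4-si label relative to Scr-si in hypoxia (7.41%, against 11.7% of all genes) and 0 rose (13.2%). The share that fell was below the background at this threshold. With no fold threshold it was above it, with 20 fallen (24.7%, against 16.6% of all genes). With an unadjusted p the counts were also 6 (12.9%) and 0 (15.7%), and on recovered reads DESeq2 called 8 and 0 and edgeR 7 and 0. Both METTL4-si libraries were below both Scr-si hypoxia libraries in 41 of 81 members (50.6%, against 32% of all genes) and above in 6 (7.41%, against 32.7%). The median over members was -0.16, against 0.01 over all genes. The genes were ATP5F1B, the catalytic beta subunit of the ATP synthase (-0.44), ATP5MK (-0.42), UQCRH (-0.44), and, in complex I, NDUFA6 (-0.47), NDUFB2 (-0.39) and NDUFB3 (-0.42). ATP5F1B had 599 and 630 in Scr-si hypoxia and 470 and 438 with the METTL4-si label (limma adjusted p = 0.0032), and NDUFA6 had 50.2 and 51.9 against 37.8 and 35.7 (limma adjusted p = 0.0051). In both genes the groups did not overlap. ATP5F1B kept its call with each library left out, and NDUFA6 and UQCRH lost theirs without Scr-si hypoxia replicate 2.

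These BFTC909 counts were also fragile, and the shares over all genes moved too. With median-centred libraries 14 members fell (17.3%, against 16.9% of all genes), which is near and not below the background, and the share of higher genes among all calls moved from 53.1% to 37.2%. The median member was -0.14 without Scr-si hypoxia replicate 2 and -0.10 without METTL4-si replicate 1, against 0.01 over all genes in each. Fewer members were called down in the first of these fits and more in the second. Without METTL4-si replicate 2, which carried the KRT8 and GATA3 signal, the median was -0.20, against -0.01 over all genes. UQCRH and ATP5MK were then no longer called.

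**Figure D3:**
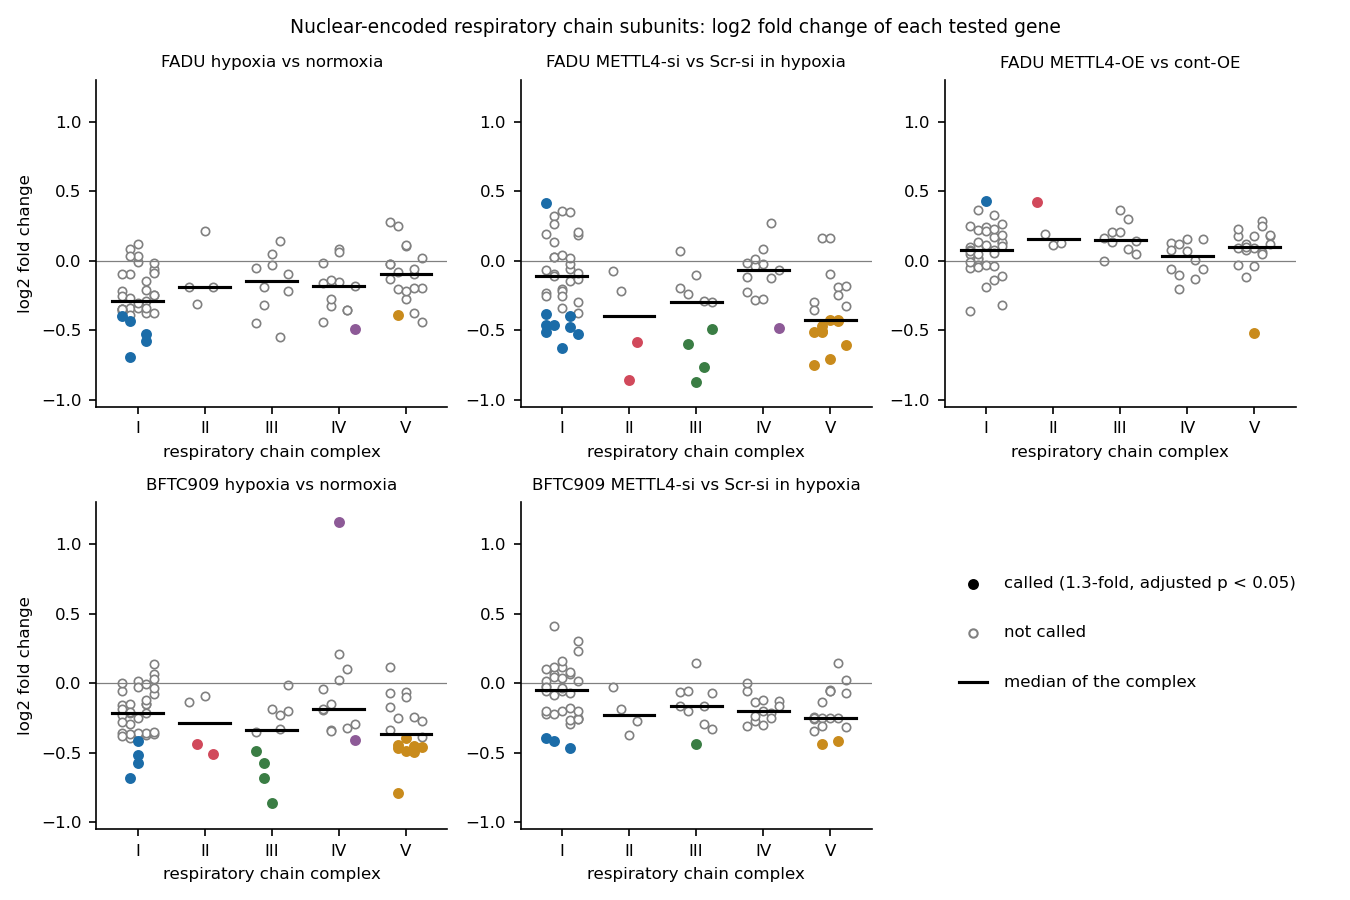
Points are the log2 fold changes (y axis) of the tested subunit genes of each complex (x axis) in 5 comparisons, filled in colour where called, with a bar at the median. Most points lie below 0 in the hypoxia and METTL4-si panels and above 0 in the METTL4-OE panel, and the filled point above 1 in BFTC909 hypoxia is NDUFA4L2.

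The lines were compared member by member. Of the 81 members tested in both, 4 fell in hypoxia in both lines (ATP5MC1, COX6B1, NDUFB9 and NDUFS3). This is 57.1% of the 7 in FADU and 21.1% of the 19 in BFTC909, against 40.4% and 21.4% for all genes that fell. These 4 are 4.94% of the members, against 4.03% of all 13595 genes tested in both lines. With the METTL4-si label, 5 fell in both (ATP5F1B, ATP5MK, NDUFA6, NDUFB2 and UQCRH). This is 20% of the 25 in FADU and 83.3% of the 6 in BFTC909, against 26.7% and 40.5% for all genes that fell. These 5 are 6.17% of the members, against 4.42% of all genes. With that label against normoxia, 27 fell in both lines (33.3%, against 10.1% of all genes). The log2 fold changes of the 81 members correlated across lines with r = 0.23 in hypoxia and r = 0.55 with the METTL4-si label. These are descriptions across genes that share libraries, not tests. The tables of the 2 lines were normalised separately.

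**Figure D4:**
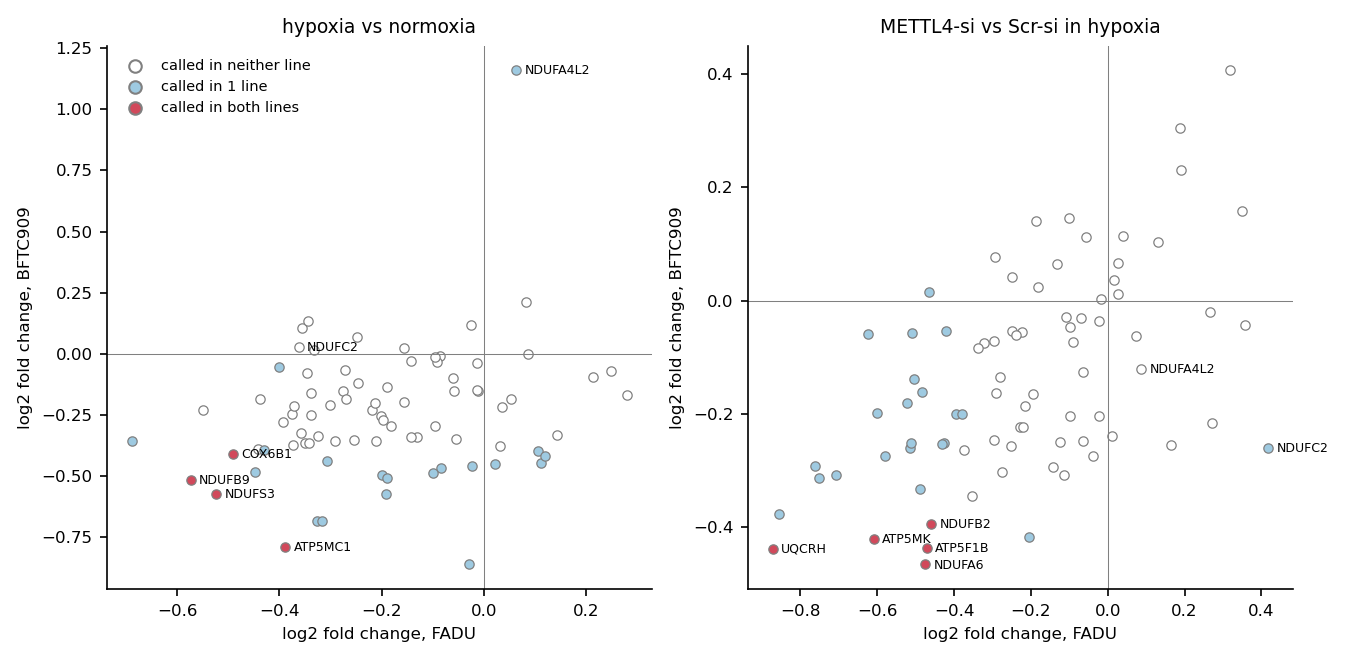
Each point is 1 of 81 members, with its log2 fold change in FADU (x axis) and BFTC909 (y axis), in hypoxia (left) and with the METTL4-si label (right). Members called in both lines are named and lie in the lower left of each panel; NDUFA4L2 stands alone at the top of the left panel, with 1.16 in BFTC909 and 0.06 in FADU.

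Against normoxia, the libraries labelled METTL4-si hypoxia had the largest counts of fallen members in each line. In FADU, 41 of 83 members fell (49.4%, against 13.5% of all genes) and 0 rose (8.13%), with a median of -0.43 against 0.01 over all genes. With an unadjusted p 43 fell and 0 rose, and edgeR and DESeq2 also called 0 up. The groups did not overlap, lower in 63 of 83 members (75.9%, against 33.6% of all genes) and higher in 3 (3.61%, against 31.4%). By complex, 18 of 37 fell in complex I, 3 of 4 in complex II, 7 of 10 in complex III, 4 of 13 in complex IV and 9 of 19 in complex V. In BFTC909, 39 of 81 fell (48.1%, against 23.2%) and 1 rose (1.23%, against 24.4%), with a median of -0.38 against 0.01. There 68 of 81 members were lower without overlap (84%, against 39.5%) and 3 higher (3.7%, against 39.3%). This comparison shares libraries with the 2 others in each line. In FADU the median member was -0.44 without normoxia replicate 1 and -0.42 without normoxia replicate 2, against 0.0003 and 0.01 over all genes. It was -0.56 without METTL4-si replicate 1 and -0.32 without METTL4-si replicate 2, against -0.02 and 0.01 over all genes.

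UQCRFS1 was at 66.0 and 74.2 in FADU normoxia and 44.1 and 36.3 with the METTL4-si label in hypoxia (-0.79), and at 75.8 and 73.5 against 45.7 and 41.0 in BFTC909 (-0.77). SDHD fell by 0.77 and 0.78, ATP5F1B by 0.67 and 0.69 and ATP5F1A by 0.65 and 0.60 in FADU and BFTC909. COX5A, a structural subunit of complex IV, fell by 0.61 and 0.47. NDUFV1, the flavoprotein that accepts electrons from NADH, fell in FADU (-0.38) and had 0.07 in BFTC909, and NDUFS1 fell in BFTC909 (-0.39) and had -0.37 in FADU, not called. ATP5MC1 in BFTC909 had the most negative change of the members, -1.04, from 69.5 and 65.0 to 28.8 and 35.9, a 2.06-fold fall. In FADU UQCRFS1 and COX5A lost their calls without normoxia replicate 2, and in BFTC909 NDUFS1 lost its call without normoxia replicate 1 or METTL4-si replicate 2. NDUFV1 in FADU lost its call without normoxia replicate 2 or METTL4-si replicate 1 and under 4 other settings (a pseudocount of 5, median-centred libraries, edgeR and DESeq2).

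In METTL4-OE, 2 of 82 members rose (2.44%, against 8.12% of all 15218 genes tested) and 1 fell (1.22%, against 10.6%). With an unadjusted p the counts were the same, against 8.44% and 11.1% of all genes. With no fold threshold 22 rose (26.8%, against 21.4% of all genes) and 4 fell (4.88%, against 18.3%). NDUFA4L2, at 0.48 to 0.63 in the 4 libraries, did not pass the filter. The squamous marker sum was 3599 and 3496 in cont-OE and 2898 and 2791 in METTL4-OE, and the simple and urothelial sum 3435 and 3415, then 2422 and 2329, and their part in the result was not tested. SDHA, the flavoprotein of succinate dehydrogenase, had 179 and 189 in cont-OE and 249 and 244 in METTL4-OE, a change of 0.42 ± 0.04 (SE, limma adjusted p = 1.8e-05). NDUFA5, which rose, had 39.1 and 31.7 in cont-OE and 50.5 and 45.5 in METTL4-OE (0.43). ATP5MGL, a low gene at 2.62 and 2.47 in cont-OE, was at 1.44 and 1.495 in METTL4-OE (-0.52).

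The median member stood at 0.10 in METTL4-OE, against 0.01 over all genes, and 47 of 82 had both METTL4-OE libraries above both cont-OE libraries (57.3%, against 36.6%), while 11 had both below (13.4%, against 33.6%). Complex III (0.15) and complex II (0.16) had the highest medians. SDHA kept its call with each library left out. NDUFA5 lost it without cont-OE replicate 2 or METTL4-OE replicate 1. Without cont-OE replicate 1 the median member stood at 0.08, against 0.01 over all genes. With the pseudocount at 5, or by DESeq2 on recovered reads, no member fell.

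The METTL4-edited clones have 1 library each, so there is no test and no replicate check. Compared with CRISPR-cont in hypoxia, 4 of 83 members were at least 1.3-fold lower in both clones (4.82%, against 11.8% of all 15719 genes) and 1 was at least 1.3-fold higher (1.2%, against 8.94%). The median log2 ratio was -0.11 in clone 1 and 0.01 in clone 2. Complex IV stood lower, with a median of -0.29 over both clones and 11 of 13 genes below the control in both (84.6%, against 42.2% of the 83 members and 40.7% of all genes). The squamous marker sum was also lower in the clones, 1585 and 2002 against 2368 in the control. So was the simple and urothelial sum, 1022 and 1383 against 1654, and the other marker sums, at 1.25 to 8.25 in these libraries, were lower as well. The part of these markers was not tested.

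COX6A1, the widely expressed form of subunit 6A of complex IV, was at 27.4 in the control and 9.68 and 11.3 in clones 1 and 2, log2 ratios of -1.41 and -1.20. It was in no call of the knockdown or overexpression tables. NDUFB1 had 30.0 against 18.2 and 18.6, NDUFB3 8.68 against 5.63 and 5.80, and UQCRHL 2.58 against 1.70 and 0.89. For COX5B the control was at 20.2, clone 1 at 10.6 and clone 2 at 19.3. UQCRFS1, the member above 1.3-fold, went from 29.1 to 39.99 in clone 1 and 44.1 in clone 2. UQCRH had 70.8, 59.8 and 62.2, and ATP5PB 97.2, 106 and 104. In the same order of libraries METTL4 RNA was 12.5, 15.9 and 10.6, and CA9 was 29.9, 10.4 and 15.2.

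**Figure D5:**
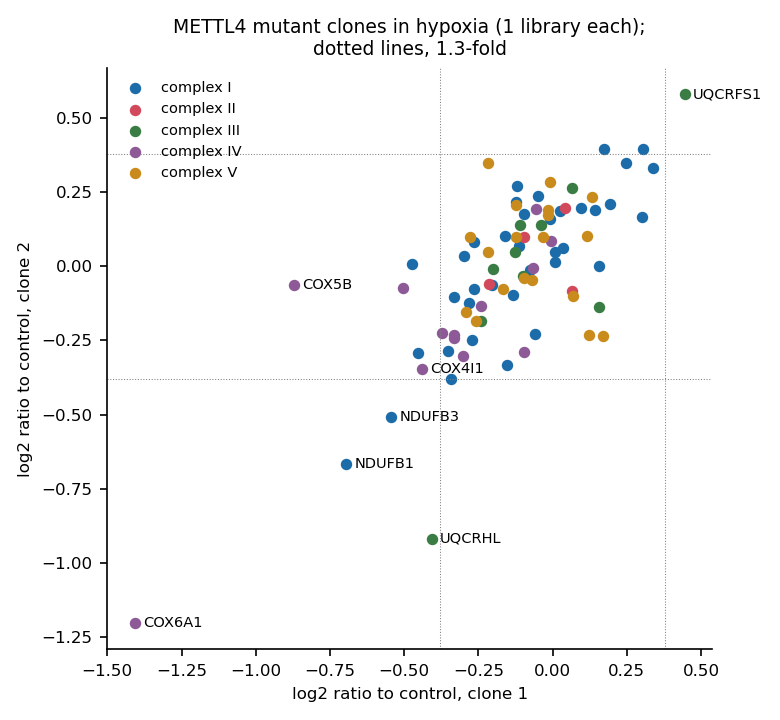
Each point is 1 of 83 members, with its log2 ratio to the CRISPR-cont library in clone 1 (x axis) and clone 2 (y axis), coloured by complex; dotted lines mark 1.3-fold. COX6A1 lies lowest, at -1.41 and -1.20, and UQCRFS1 highest, at 0.44 and 0.58.

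The genes that assemble or regulate the chain were counted as lists. Of the 47 measured assembly factors of a list of 49, 7 fell (14.9%, against 9.65% of all genes) and 1 rose (2.13%, against 9.73%) in FADU hypoxia. In BFTC909 hypoxia 21 fell (44.7%, against 18.3%) and 0 rose (17.9% of all genes), and the median was -0.32. With the METTL4-si label 6 fell (12.8%, against 15.3%) and 5 rose (10.6%, against 12.5%) in FADU, and 1 fell and 1 rose in BFTC909 (2.13% each, against 11.7% and 13.2%). In METTL4-OE 1 rose (2.13%, against 8.12%). Against normoxia, METTL4-si in hypoxia had 11 fallen (23.4%, against 13.5%) and 0 risen (8.13% of all genes) in FADU. In BFTC909 it had 24 fallen (51.1%, against 23.2%) and 2 risen (4.26%, against 24.4%).

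Of the nuclear regulators of mitochondrial genes, 12 of 13 were tested in FADU and all 13 in BFTC909. In hypoxia 4 fell (33.3%, against 9.65% of all genes) and 1 rose (8.33%, against 9.73%) in FADU, and 8 fell (61.5%, against 18.3%) and 0 rose (17.9% of all genes) in BFTC909. With the METTL4-si label 3 fell (25%, against 15.3%) and 2 rose (16.7%, against 12.5%) in FADU, and 1 fell (7.69%, against 11.7%) and 2 rose (15.4%, against 13.2%) in BFTC909. In METTL4-OE 1 fell (8.33%, against 10.6%) and 0 rose (8.12% of all genes). Against normoxia, METTL4-si in hypoxia had 4 fallen (33.3%, against 13.5%) and 1 risen (8.33%, against 8.13%) in FADU. In BFTC909 it had 7 fallen (53.8%, against 23.2%) and 1 risen (7.69%, against 24.4%). TFAM, which packages and transcribes mitochondrial DNA, fell in BFTC909 hypoxia (from 110 ± 1.8 to 61.3 ± 1.4, SD, n = 2; -0.83) and in FADU with the METTL4-si label (from 117 ± 0.58 to 77.2 ± 7.5, SD, n = 2; -0.60). It was not called in FADU hypoxia (-0.13) or in BFTC909 with the METTL4-si label (-0.08). PPRC1, a coactivator of NRF1, fell in hypoxia in both lines (-0.49 in FADU and -0.58 in BFTC909). TFAM and PPRC1 were named after their values were seen.

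The 8 HIF-regulated genes acting on mitochondria held more rises than falls in hypoxia. In hypoxia 4 rose (50%, against 9.73% of all genes) and 0 fell (9.65% of all genes) in FADU. In BFTC909 5 rose (62.5%, against 17.9%) and 2 fell (25%, against 18.3%). With the METTL4-si label 5 fell (62.5%, against 15.3% in FADU and 11.7% in BFTC909) and 0 rose in each line, and in METTL4-OE 4 rose (50%, against 8.12%). Against normoxia, METTL4-si in hypoxia had 1 risen (12.5%, against 8.13% of all genes) and 1 fallen (12.5%, against 13.5%) in FADU. In BFTC909 it had 2 risen (25%, against 24.4%) and 2 fallen (25%, against 23.2%). These shares are near the background. PDK1 had a log2 fold change of 2.71 and 1.34 in hypoxia (FADU and BFTC909), -2.26 and -1.12 with the METTL4-si label and 1.42 in METTL4-OE. HIGD1A, which binds complex IV, fell in BFTC909 hypoxia (-0.73) and was at 76.7 ± 0.63 in FADU hypoxia against 72.4 ± 2.9 in normoxia (SD, n = 2; 0.08, not called). It was named after its values were seen.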

How the data were processed

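RNA of 19 of 21 samples was used. Per the labels and methods, ribosomal RNA was depleted, libraries were stranded and paired-end, and the authors used Trim Galore for trimming, HISAT2 for alignment (hg19), htseq-count for gene counts and edgeR for normalisation (versions and annotation not given in the sources used here). The deposited values are TMM-normalised CPM, a signal per gene, in 4 tables normalised separately. Another 4 deposited tables hold the authors' fold changes and p-values and were not used. Of the overexpression data, 2 columns matched no sample label and were not used, so the RP11-390F4.3 comparison is not analysed here.

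Gene symbols came from GENCODE v44lift37 (GRCh37). Low values were whole multiples of 1 read in the knockdown and overexpression tables, which gave 19.0 to 24.9 M reads on genes per library; 100% of low values came out whole. In the clone table, rows outside genes took 40.9% to 43.0% of the values, and its depth is unknown.

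Genes at 1 or more in at least 2 libraries were tested with limma 3.58.1 (R 4.3.3; log2(value + 1), trend, all groups of a table sharing the spread). Calls needed 1.3-fold and an adjusted p below 0.05; the study's criterion used an unadjusted p and is an alternative, as are edgeR 4.0.16 and DESeq2 1.42.0 on recovered reads. The clones, with 1 library each, were not tested. Named genes were the isoform genes, core subunits, METTL4, CA9 and PDK1, and the 4 called members with the largest and the 4 with the most negative change per comparison at a mean of 5 or more. Scripts were tested on simulated data. Members and lists were chosen with earlier results of these data known. Many subunits have processed pseudogenes, and how their reads were assigned is not given. For 1 member, the difference between the lines in hypoxia is not reported here.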

Additional observations from a re-analysis of the deposited data

Results flagged for a closer look

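In the 9 cases below, every library of one line lay on one side of its control and every library of the other line on the opposite side. How many of all genes do so is not given here. In each line alone such separation was common. In hypoxia 33.5% of all genes were higher and 39.5% lower in FADU, and 39% and 43.2% in BFTC909. With the METTL4-si label the shares were 33.9% and 34.4%, then 32.7% and 32%. The cases are therefore not read as a result about the members. Each line has 2 libraries per group, the difference between the lines was not tested, and the tables were normalised separately. In hypoxia, NDUFA5 had log2 fold changes of 0.12 in FADU and -0.42 in BFTC909, ATP5PF 0.11 and -0.45, and ATP5F1C 0.11 and -0.40, and the BFTC909 falls of these 3 passed the test. For UQCRB the values were 0.14 and -0.33. In the other direction COX6A1 had -0.36 in FADU and 0.10 in BFTC909, and NDUFB11 -0.34 and 0.14. With the METTL4-si label, NDUFC2 had 0.42 in FADU, where it rose, and -0.26 in BFTC909. ATP5MC1 had 0.17 and -0.25, and COX6A1 0.27 and -0.21. The remaining values did not pass the test in their own line.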

How the results depend on the processing

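The direction of the median log2 fold change over members held under every alternative in the 7 tested comparisons; that of the clones was 0.00722 with clone 2 alone, against -0.04 over both. No called gene among those named changed sign; of 129 values of named genes that were not called, 30 differed in sign between settings. The cause of each change below was not tested, apart from what its own construction shows.

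Leaving out each library in turn gave, for members called down, 1 to 3 in FADU hypoxia, 6 to 38 in FADU METTL4-si against Scr-si (0 to 4 up, median -0.34 to -0.12), 12 to 55 in FADU METTL4-si against normoxia (median -0.56 to -0.32), 11 to 18 in BFTC909 hypoxia (median -0.30 to -0.21), 1 to 10 in BFTC909 METTL4-si against Scr-si (0 to 2 up, median -0.20 to -0.10), and 0 to 2 in METTL4-OE (1 to 6 up). In BFTC909 METTL4-si against normoxia 1 to 2 were called up. A lone library left in a group is assumed to vary like the other groups. In these fits the number of members called moved, and so did the shares called over all genes. An alternative chosen after seeing the data left out the 3 libraries set apart by marker genes. The median over members was then -0.24 in FADU hypoxia, against -0.03 over all genes. It was -0.34 in FADU METTL4-si against Scr-si (-0.01 over all genes) and -0.57 against normoxia (-0.02 over all genes). In BFTC909 METTL4-si it was -0.20 against Scr-si (-0.01 over all genes) and -0.40 against normoxia (-0.02 over all genes).

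With no fold threshold, 17 fell in FADU hypoxia, 4 rose in FADU METTL4-si against Scr-si, 2 rose and 36 fell in BFTC909 hypoxia, 20 fell in BFTC909 METTL4-si against Scr-si, and 22 rose and 4 fell in METTL4-OE. At 2-fold, limma called 0 members in any of the FADU comparisons, METTL4-OE included, where no member reached 2-fold at any p. Over all genes 0.447% to 2.36% were called in either direction there. In BFTC909, 0 fell in hypoxia (2.04% of all genes) and in METTL4-si against Scr-si (1.88%). In METTL4-si against normoxia 1 fell (1.23%, against 3.13%). When the fit held the compared groups alone, 12 fell in FADU hypoxia (14.6%, against 13.7% of all genes) and 0 rose in FADU METTL4-si against Scr-si (10.7% of all genes). Median-centred libraries gave 0 up in FADU METTL4-si against Scr-si (10% of all genes). They gave 12 down in BFTC909 hypoxia (14.8%, against 14.2%, median -0.18) and 14 down in BFTC909 METTL4-si against Scr-si (17.3%, against 16.9%, median -0.26).

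A pseudocount of 0.1 gave 2 up in FADU METTL4-si against Scr-si (2.41%, against 12.9% of all genes), 2 down in METTL4-OE (2.44%, against 11.1%) and 2 higher in both clones. A pseudocount of 5 gave 0 (7.96% of all genes), 0 down (5.57%) and 2 lower in both clones. edgeR gave 2 up in FADU METTL4-si against Scr-si (2.41%, against 12.5%) and 2 down in METTL4-OE (2.44%, against 11.6%), and DESeq2 0 down in METTL4-OE (7.96% of all genes). A mean of at least 5 gave 0 up in BFTC909 hypoxia (16.5% of all genes), 0 up in BFTC909 METTL4-si against normoxia (20.9%) and 0 down in METTL4-OE (8.93%), since NDUFA4L2 and ATP5MGL lie under it. Without the trend 1 rose in METTL4-OE (1.22%, against 7.72%). Clone 1 alone had 9 members 1.3-fold lower, and clone 2 alone 3 higher. For the clone counts of this paragraph the share over all genes is not given here.

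Replicate numbers were not taken as pairs: replicate differences correlated between -0.07 and 0.15 across groups, except 0.65 between FADU normoxia and METTL4-si, whose replicates 1 share the luminal markers. With the replicate block the members called down were 7 in FADU hypoxia (8.43%, against 9.86% of all genes) and 24 in FADU METTL4-si against Scr-si (28.9%, against 15.4%). They were 21 in BFTC909 hypoxia (25.9%, against 18.6%) and 6 in BFTC909 METTL4-si against Scr-si (7.41%, against 11.8%). No count moved by over 1.5 times. The RP11-390F4.3 alternatives were not run, and in the METTL4-OE table the fit on the compared groups alone is the main one. The 2 libraries per group limit the smallest change that can be called.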
